A study of Homo sapiens with 24 samples.

Results

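The response to cyclocreatine was compared between 2 human leukemia cell lines, TF-1 and UT-7, gene by gene. The response difference of a gene was its log2 change with cyclocreatine over vehicle in TF-1 minus the same change in UT-7, so that a positive value means a response that lay higher in TF-1. It rested on 16 of the 24 libraries of the series, 4 in each of the groups TF-1 cyclocreatine, TF-1 vehicle, UT-7 cyclocreatine and UT-7 vehicle. Cells received cyclocreatine at 3 mM or vehicle, and RNA was taken at 24 h and sequenced on an Illumina instrument. The series describes both lines as acute myeloid leukemia driven by EVI1, the zinc finger protein made from MECOM, and a difference here is one between these 2 lines. Whether the 4 replicates were grown apart is not stated, and p-values then measure only the spread between these libraries, which may be technical. The labels give no batch.

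Creatine kinases move a phosphate group between ATP and creatine, and cells with high and changing energy demand use this pair as a buffer. Cyclocreatine is a creatine analog that enters through the creatine transporter and is phosphorylated by creatine kinases, but its phosphate is returned to ADP poorly. TF-1 is an erythroleukemia line and UT-7 a megakaryoblastic leukemia line, and both depend on cytokines for growth. Both express programs of red cell precursors and of megakaryocytes, the cells that shed platelets.

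Library totals ran from 12794998 to 21200662 counts. The first component of the log2 levels held 87.1% of their variance and separated the lines, and the second held 5.40% and separated cyclocreatine from vehicle. Summed markers of red cell precursors lay between 9564 and 10050 CPM (counts scaled to library size, comparable between libraries for a gene) in TF-1 with cyclocreatine and between 12190 and 12630 CPM with vehicle, and between 8669 and 9164 CPM in UT-7 with cyclocreatine and between 11260 and 11330 CPM with vehicle. Much of these sums, and of their fall, was TFRC, the transferrin receptor. It held 2048 to 2578 CPM in TF-1 with cyclocreatine and 5031 to 5448 CPM with vehicle. In UT-7 it held 1904 to 1994 CPM with cyclocreatine and 3401 to 3538 CPM with vehicle. The other members moved in both directions, as counted below. Summed megakaryocyte markers were 1842 to 1976 CPM in TF-1 with cyclocreatine and 1650 to 1683 CPM with vehicle, and 1823 to 1882 CPM in UT-7 with cyclocreatine and 1676 to 1738 CPM with vehicle, although 3 of the 32 (GP1BB, PF4 and PF4V1) were listed at 0 throughout. The integrin gene ITGA2B alone held 893.7 to 1005 CPM in TF-1 with cyclocreatine and 551.0 to 578.5 CPM with vehicle. In UT-7 it held 1065 to 1103 CPM with cyclocreatine and 866.6 to 920.0 CPM with vehicle. More tested members fell than rose in each line, as counted below, so the higher sums do not describe the list. Summed lymphoid markers stayed at or under 26.2 CPM in every library. In bulk RNA, fewer cells of a type and less RNA per cell cannot be told apart. A single library stood apart, since the share of counts on ribosomal protein genes was 10.3% in TF-1 cyclocreatine replicate 1, against 8.48% to 8.53% in the other 3 libraries of that group.

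Responses that differed between the lines were common. Of 13889 genes tested, 3474 (25.0%) had a response difference that passed edgeR's quasi-likelihood test with Benjamini-Hochberg adjustment (adjusted p under 0.05). The difference was positive for 2006 genes (14.4%) and negative for 1468 genes (10.6%), and the median absolute difference among them was 0.39 on the log2 scale. A difference of at least 2-fold was rarer, with 91 genes (0.655%) higher and 233 genes (1.68%) lower in TF-1. The positive share of the calls was 57.7%. It was 41.0% with library totals alone and no further scaling. Without TF-1 cyclocreatine replicate 1, 2 or 4 it was 49.96%, 50.37% and 50.37%.

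These differences arose from different combinations of the responses of the lines. Cyclocreatine raised 3859 genes (27.8%) and lowered 3775 genes (27.2%) in TF-1, and raised 3002 genes (21.6%) and lowered 3232 genes (23.3%) in UT-7. Changes of at least 2-fold were upwards for 310 genes (2.23%) and downwards for 596 genes (4.29%) in TF-1, and upwards for 281 genes (2.02%) and downwards for 255 genes (1.84%) in UT-7. All 4 groups share 1 estimate of spread, so leaving out a library of 1 line also changes which genes pass in the other. Without TF-1 cyclocreatine replicate 1, 3554 genes rose and 3497 fell in UT-7, and 3784 rose and 4141 fell in TF-1. Counts of genes that passed in 1 line alone depend on this shared estimate. Of the 3474 genes with a response difference, 1262 passed in TF-1 alone and 802 in UT-7 alone. Another 994 moved the same way in both lines but by unequal amounts, and of these 372 rose further and 285 fell further in TF-1. Opposite responses, passed in each line, were found for 359 genes (2.58%), of which 188 (1.35%) rose in TF-1 and fell in UT-7 and 171 (1.23%) fell in TF-1 and rose in UT-7. The 188 became 110 with library totals alone. The remaining 57 passed for the difference but in neither line.

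**Figure D1:**
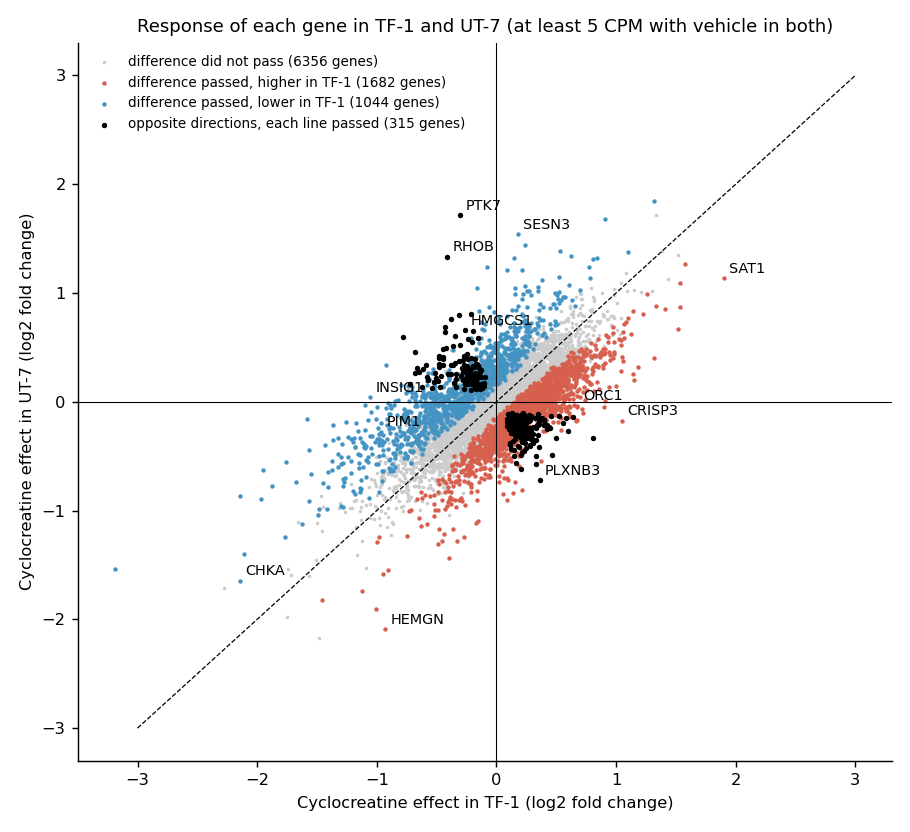
Cyclocreatine effect (log2 fold change over vehicle) in TF-1 on the horizontal axis and in UT-7 on the vertical axis, 1 point per gene, for the 9397 genes with at least 5 CPM in both lines with vehicle. Points below the dashed line of equal response lay higher in TF-1 (red, 1682 genes), points above it lower (blue, 1044 genes), and black points (315 genes) passed in both lines in opposite directions, with PTK7 and RHOB at the top left.

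The share of genes with a response difference depended on the vehicle levels. With vehicle, 80.6% of genes differed between the lines. Among the 9397 genes with at least 5 CPM in both lines with vehicle, 3041 (32.4%) had a response difference, 1862 of them positive and 1179 negative. Among 451 genes with at least 5 CPM in TF-1 and under 1 CPM in UT-7, 44 (9.76%) did, and among 121 genes with at least 5 CPM in UT-7 and under 1 CPM in TF-1, 16 (13.2%) did. The median standard error of the difference was 0.0957 for genes present in both lines, against 0.619 and 0.677 for the genes of a single line, so a difference of ordinary size was not detectable at this depth for most genes that only 1 line expressed. The vehicle libraries enter both the vehicle level and the response, so levels and responses are set side by side and no correlation is given between them.

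Of the 8 genes with the largest negative differences, among those whose higher group mean was at least 5 CPM in each line and that separated treated from vehicle libraries in at least 1 line, 5 were expressed by TF-1 with vehicle and gained by UT-7 with cyclocreatine. JAG2 encodes a ligand of Notch receptors. TF-1 libraries held 29.3, 28.6, 29.4 and 28.1 CPM of JAG2 with cyclocreatine and 33.1, 30.9, 34.6 and 30.7 CPM with vehicle. UT-7 libraries held 7.02, 8.88, 7.27 and 8.73 CPM with cyclocreatine and 1.26, 1.24, 1.27 and 1.77 CPM with vehicle. Every treated UT-7 library lay above every UT-7 vehicle library, and every treated TF-1 library lay below every TF-1 vehicle library. The log2 change was -0.17 in TF-1 (adjusted p = 0.0692) and 2.52 in UT-7 (adjusted p = 2.38e-13). The small fall in TF-1 passed in some alternative fits, among them DESeq2 (adjusted p = 0.0305) and limma-voom (0.0258). The response difference was -2.69 ± 0.17 (SE; adjusted p = 1.61e-11). The gap between the lines was 1.85 on the log2 scale with cyclocreatine and 4.54 with vehicle.

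PTK7, a receptor-like pseudokinase of the Wnt planar polarity pathway, showed a similar arrangement. It stood at 26.6, 32.4, 33.9 and 27.4 CPM in TF-1 with cyclocreatine and 37.8, 36.04, 33.2 and 40.6 CPM with vehicle, where the groups overlapped, and at 19.99, 21.6, 18.2 and 21.5 CPM in UT-7 with cyclocreatine and 6.09, 6.31, 6.24 and 6.06 CPM with vehicle, where they did not. It fell in TF-1 (log2 change -0.30, adjusted p = 0.00266) and rose in UT-7 (1.72), and the response difference was -2.02 ± 0.13 (SE; adjusted p = 4.42e-11). RHOB, a small GTPase of endosomes and actin, held 40.2, 39.2, 36.5 and 39.2 CPM in TF-1 with cyclocreatine and 52.9, 51.01, 51.2 and 51.5 CPM with vehicle. In UT-7 it held 16.8, 17.7, 14.5 and 16.6 CPM with cyclocreatine and 7.28, 5.08, 6.68 and 6.95 CPM with vehicle, and the groups of neither line overlapped. RHOB fell in TF-1 (-0.41) and rose in UT-7 (1.33), which gave a difference of -1.75 ± 0.12 (adjusted p = 5.56e-11). CDKN1C, the cyclin-dependent kinase inhibitor p57, averaged 31.03 ± 3.44 CPM in TF-1 with cyclocreatine and 36.9 ± 0.773 CPM with vehicle (SD, n = 4 each). In UT-7 it averaged 8.98 ± 1.45 CPM with cyclocreatine and 3.32 ± 0.508 CPM with vehicle, and the difference was -1.68 ± 0.17. TSPAN13, a tetraspanin of the cell membrane, averaged 17.6 ± 1.09 CPM with cyclocreatine and 18.5 ± 1.42 CPM with vehicle in TF-1, and 8.36 ± 0.974 CPM with cyclocreatine and 3.41 ± 0.762 CPM with vehicle in UT-7. HMOX1, the heme-degrading oxygenase, followed the same order of levels at 54.9 ± 6.696 and 61.2 ± 2.696 CPM with cyclocreatine and vehicle in TF-1 and 4.71 ± 0.813 and 1.48 ± 0.196 CPM in UT-7, and its difference was -1.82 ± 0.20 (adjusted p = 3.51e-07). For all 6 genes the level in UT-7 with cyclocreatine still lay below that in TF-1 with cyclocreatine, with gaps of 0.56 for PTK7, 1.24 for RHOB, 1.79 for CDKN1C, 1.08 for TSPAN13 and 3.54 for HMOX1 on the log2 scale. With vehicle the gaps were 2.58, 2.99, 3.48, 2.44 and 5.36 in the same order.

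Among the other 3 of these 8 genes, PPP2R5B and ZNF667-AS1 fell in TF-1 and BASP1 moved in opposite directions. PPP2R5B, a regulatory subunit of protein phosphatase 2A, held 3.51, 2.16, 2.91 and 2.98 CPM in TF-1 with cyclocreatine and 7.89, 8.88, 8.34 and 9.69 CPM with vehicle, without overlap. In UT-7 its means were 6.25 ± 0.402 CPM with cyclocreatine and 6.97 ± 0.645 CPM with vehicle (SD, n = 4 each), and the difference was -1.43 ± 0.20 (adjusted p = 6.59e-06). ZNF667-AS1, an antisense RNA whose reads cannot be told apart from those of its partner gene without strand, fell in both lines and further in TF-1, by log2 changes of -3.19 in TF-1 and -1.54 in UT-7. BASP1, a membrane-bound signaling protein, averaged 3.87 ± 0.691 CPM with cyclocreatine and 6.63 ± 0.792 CPM with vehicle in TF-1. It averaged 117 ± 7.07 CPM with cyclocreatine and 77.3 ± 2.704 CPM with vehicle in UT-7, so here the line with the lower vehicle level fell (-0.78) and the line with the higher level rose (0.60).

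**Figure D2:**
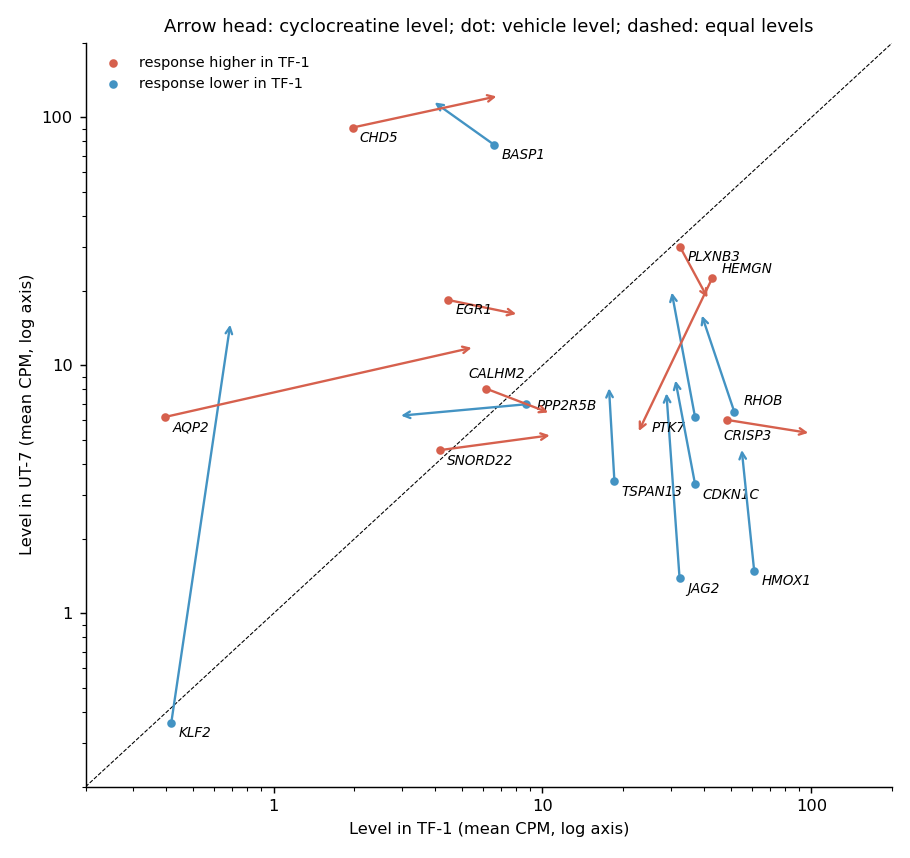
Mean level in TF-1 (horizontal) and UT-7 (vertical) on log axes in CPM, with a dot at the vehicle level and an arrow head at the cyclocreatine level of each gene, for the genes with the largest response differences and for KLF2 and HMOX1. Arrows of JAG2, PTK7, RHOB, CDKN1C, TSPAN13 and HMOX1 start far below the dashed line of equal levels and run upwards towards it, and that of AQP2 starts far above it and runs to the right.

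Among positive differences by the same rule, the largest was that of AQP2, the vasopressin-regulated water channel of the kidney collecting duct. TF-1 libraries held 6.76, 5.37, 6.17 and 4.17 CPM with cyclocreatine and 0.631, 0.596, 0.117 and 0.236 CPM with vehicle. UT-7 libraries held 11.8, 12.02, 11.7 and 11.97 CPM with cyclocreatine and 6.86, 5.97, 6.11 and 5.84 CPM with vehicle. AQP2 rose in both lines without overlap, by a log2 change of 3.82 in TF-1 and 0.94 in UT-7, and the response difference was 2.89 ± 0.32 (adjusted p = 3.91e-07). Its vehicle level in TF-1 rested on 25 counts over 4 libraries. The gap between the lines was -1.09 with cyclocreatine and -3.98 with vehicle. CHD5, a chromatin remodeler, likewise rose further in the line that had less of it, with 6.95 ± 0.2597 CPM and 1.97 ± 0.839 CPM with cyclocreatine and vehicle in TF-1 and 122 ± 9.43 CPM and 90.95 ± 3.57 CPM in UT-7. CRISP3, a secreted protein of neutrophil granules, was gained by the line that had more of it. It held 95.5, 100.4, 106 and 99.4 CPM in TF-1 with cyclocreatine and 45.2, 50.6, 49.8 and 48.6 CPM with vehicle, and 5.45, 5.05, 5.21 and 5.56 CPM in UT-7 with cyclocreatine and 5.600, 5.42, 5.92 and 7.17 CPM with vehicle. The treated TF-1 libraries all lay above the vehicle ones while those of UT-7 overlapped, and the difference was 1.22 ± 0.12 (adjusted p = 7.52e-08). EGR1, an immediate early transcription factor, had a difference of 1.08 ± 0.18, with log2 changes of 0.88 in TF-1 and -0.20 in UT-7 (adjusted p = 0.154 there). SNORD22, a small nucleolar RNA inside the host gene SNHG1 whose reads may belong to the host, had a difference of 1.21 ± 0.21.

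KLF2 and NR4A2 were chosen after their values were seen, because KLF2 lies below the level that the rule for naming genes asks of TF-1. KLF2 encodes a Krüppel-like factor that keeps endothelial cells and lymphocytes quiescent. TF-1 libraries held 0.638, 0.767, 0.922 and 0.447 CPM with cyclocreatine and 0.253, 0.5300, 0.352 and 0.532 CPM with vehicle, and UT-7 libraries held 15.9, 15.1, 13.4 and 15.9 CPM with cyclocreatine and 0.4200, 0.275, 0.382 and 0.3696 CPM with vehicle. With vehicle all 8 libraries of the lines lay under 1 CPM, and with cyclocreatine only those of UT-7 lay above it. The log2 change was 0.68 in TF-1 (adjusted p = 0.084) and 5.35 in UT-7 (adjusted p = 1.76e-16), and the response difference was -4.67 ± 0.47 (adjusted p = 6.52e-08). NR4A1, an orphan nuclear receptor of the immediate early class, averaged 1.71 ± 0.461 CPM in TF-1 with cyclocreatine and 3.96 ± 0.485 CPM with vehicle, and 10.7 ± 1.52 CPM in UT-7 with cyclocreatine and 6.21 ± 1.397 CPM with vehicle (SD, n = 4 each). It fell in TF-1 (-1.21) and rose in UT-7 (0.79). NR4A2 of the same family rose in both lines, by 1.43 in TF-1 and 2.46 in UT-7, with a difference of -1.03 ± 0.22 (adjusted p = 0.00128). Of the 15 tested KLF and NR4A factors, 8 had a negative and 0 a positive difference, beside 10.6% and 14.4% of all genes, and the median difference was -0.52 against 0.02 over all genes tested. KLF6 fell in TF-1 (-0.18, which did not pass in several alternative fits) and rose in UT-7 (0.39). KLF10, KLF11 and KLF12 fell in TF-1, with log2 changes of -0.50, -0.36 and -0.51, and had log2 values of 0.08, 0.16 and 0.01 in UT-7 that did not pass. The immediate early factor JUN also rose in UT-7. It held 22.8, 21.7, 23.2 and 20.8 CPM in TF-1 with cyclocreatine and 22.7, 22.2, 23.7 and 21.1 CPM with vehicle, and 46.2, 43.5, 43.9 and 42.6 CPM in UT-7 with cyclocreatine and 26.5, 24.8, 22.98 and 25.4 CPM with vehicle. The vehicle levels of the lines were close, the UT-7 groups did not overlap, and the difference was -0.85 ± 0.10 (adjusted p = 4.32e-07).

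KLF2 and JUN carry a match to a loose form of the binding motif of MEF2 factors in the 250 bases before the gene start. It was spelled CTANNNNTAG, with any base at N, and searched on both strands. The promoter sequences are from RefSeq on build GRCh38.p14, read 5′ to 3′ on the strand of the gene and ending just before the start, and capitals mark the match, which begins 120 bases before the start of KLF2 (chr19:16324576-16324825, plus strand) and 55 bases before that of JUN (chr1:58784048-58784297, minus strand).
KLF2: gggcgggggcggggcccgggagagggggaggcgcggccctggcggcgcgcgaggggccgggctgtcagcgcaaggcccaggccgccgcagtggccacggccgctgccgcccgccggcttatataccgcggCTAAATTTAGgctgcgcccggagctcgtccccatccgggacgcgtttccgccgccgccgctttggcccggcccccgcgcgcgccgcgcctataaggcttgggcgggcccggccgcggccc
JUN: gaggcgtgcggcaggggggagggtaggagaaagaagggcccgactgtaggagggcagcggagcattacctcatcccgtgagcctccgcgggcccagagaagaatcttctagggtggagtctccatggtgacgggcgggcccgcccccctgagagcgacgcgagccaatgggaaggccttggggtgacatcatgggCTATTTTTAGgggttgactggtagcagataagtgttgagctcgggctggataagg
The same letters occurred in 827 of 35116 promoters of that length (2.36%) and in the promoters of 797 of 27305 genes (2.92%). They were in 3 of the 12 KLF and NR4A genes that had a promoter sequence (25%) and in 1 of the 16 such genes on the MAPK feedback and immediate early list (6.25%). KLF2 and JUN were picked by hand for display, so the pair does not stand for either list. The match describes the letters and is not evidence of binding. Since any base was allowed at N, the counts are of these letters and not of MEF2 motifs.

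**Figure D3:**
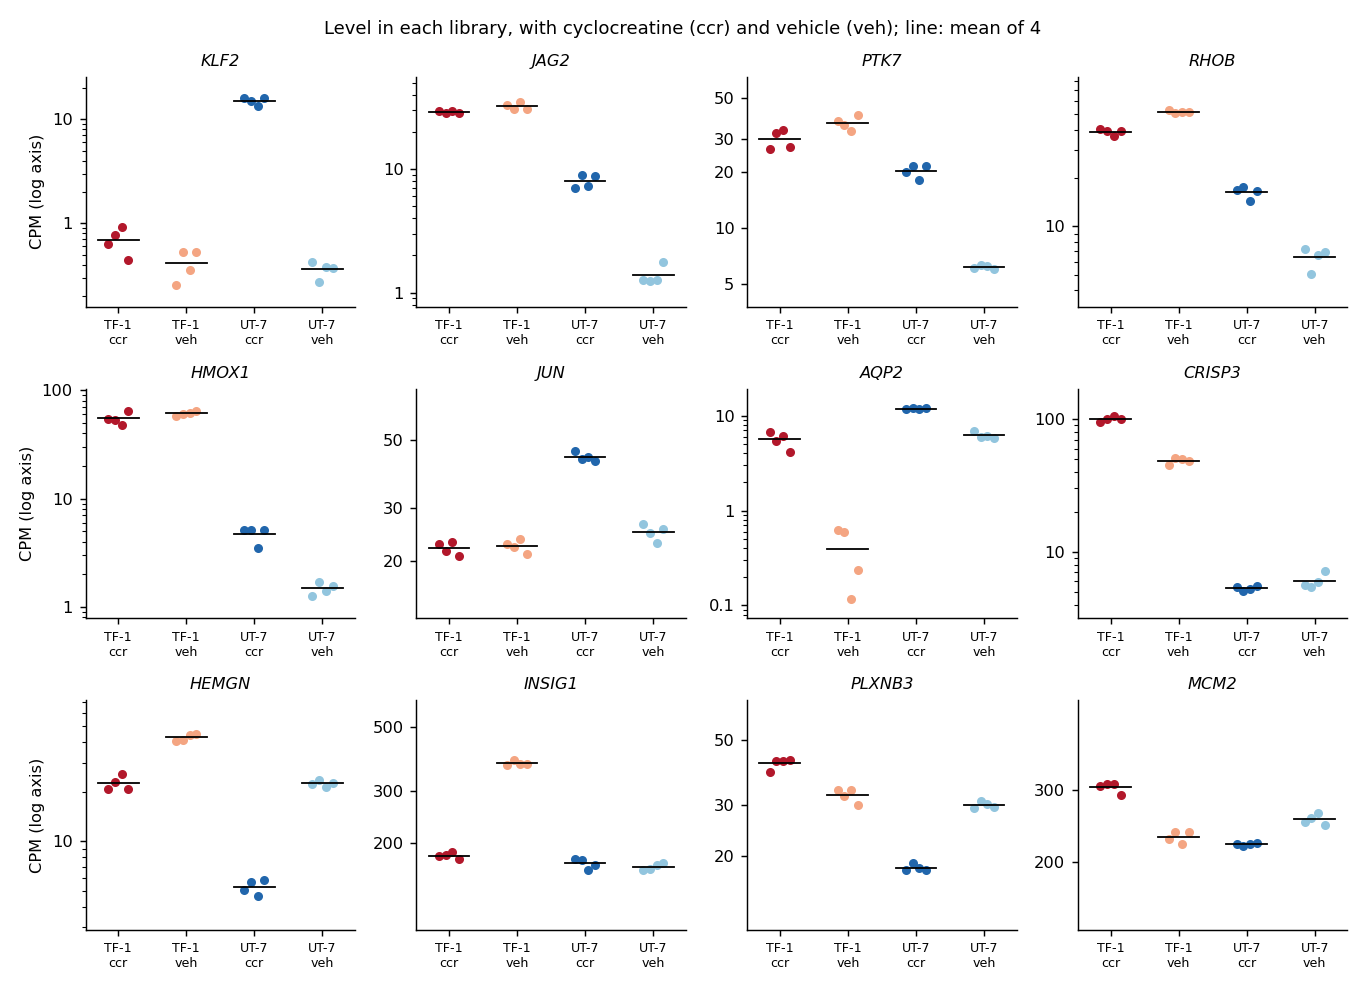
Level of 12 genes in each of the 16 libraries in CPM on log axes, with TF-1 cyclocreatine, TF-1 vehicle, UT-7 cyclocreatine and UT-7 vehicle from left to right, 1 point per library and a line at the mean of 4. KLF2, JAG2, PTK7, RHOB, HMOX1 and JUN rise in UT-7, AQP2 rises in both lines and further in TF-1, and MCM2 and PLXNB3 rise in TF-1 and fall in UT-7.

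Genes of DNA replication fell more widely in UT-7 than in TF-1. The list of 47 genes covers the start of S phase: the MCM helicase, its loaders, DNA polymerases and nucleotide synthesis, and E2F factors switch many of them on at the G1/S boundary. In TF-1 18 rose and 17 fell (27.8% and 27.2% of all genes), or 13 and 22 with library totals alone, and the median log2 change was 0.03. In UT-7 1 rose and 40 fell (21.6% and 23.3% of all genes), with a median of -0.28. The response difference was positive for 34 and negative for 1, and 11 had opposite responses, beside 14.4%, 10.6% and 2.58% of all genes. The median difference was 0.35 against 0.02 over all genes tested. ORC1, a subunit of the origin recognition complex, held 105, 109, 104 and 105 CPM in TF-1 with cyclocreatine and 66.8, 65.3, 66.8 and 66.2 CPM with vehicle, and 104, 103, 103 and 98.8 CPM in UT-7 with cyclocreatine and 102, 103, 109 and 106 CPM with vehicle. With cyclocreatine TF-1 reached the level that UT-7 had with or without it, and the difference was 0.71 ± 0.06 (adjusted p = 2.77e-09). MCM2, a subunit of the replicative helicase, held 308, 310.5, 310.4 and 292 CPM in TF-1 with cyclocreatine and 228, 237, 222 and 237 CPM with vehicle, and 222, 219, 221 and 223 CPM in UT-7 with cyclocreatine and 251, 256, 263 and 246 CPM with vehicle. Here the vehicle levels of the lines were close and the responses ran in opposite directions without overlap in either line (0.40 in TF-1, -0.20 in UT-7). UNG, the uracil DNA glycosylase, had a difference of 0.75 ± 0.08 and MCM6 one of 0.44 ± 0.05, each with a rise in TF-1 (0.56 and 0.24) and a fall in UT-7 (-0.19 and -0.20). Other members fell in both lines and further in UT-7, among them CCNE2, cyclin E2 (-0.31 in TF-1, -0.90 in UT-7), MCM3 (-0.20, -0.65) and the sliding clamp PCNA (-0.22, -0.50). POLA1, the catalytic subunit of polymerase alpha, was the 1 member with a negative difference (-0.49 ± 0.11).

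The letters TTTNGCGC, with any base at N, are a loose form of the sites that E2F factors bind. They can also match sequences that are not E2F sites. Of the 42 replication genes with a promoter sequence, 12 (28.6%) held these letters on either strand in the 250 bases before the gene start, beside 503 of 27305 genes in the promoter table (1.84%). Counted over promoters, of which a gene can have several, the letters were in 12 of 55 of the list (21.8%), beside 530 of all 35116 (1.51%). Shown are the 2 of these genes with the smallest p of the response difference, MCM6 (chr2:135876444-135876693, minus strand), where the matches on both strands overlap and begin 152, 148, 90 and 86 bases before the start, and CDT1, the loader of the MCM helicase (chr16:88803539-88803788, plus strand), with 1 match that begins 213 bases before the start and lies on the opposite strand. Capitals mark the matches, which describe letters and are not evidence of binding. In CDT1 the base at N is an A on the strand of the match.
MCM6: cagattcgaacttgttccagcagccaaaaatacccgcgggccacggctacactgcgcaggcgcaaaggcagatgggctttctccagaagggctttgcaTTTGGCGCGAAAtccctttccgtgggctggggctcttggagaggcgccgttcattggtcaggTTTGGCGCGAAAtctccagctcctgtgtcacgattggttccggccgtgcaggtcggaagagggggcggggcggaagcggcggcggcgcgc
CDT1: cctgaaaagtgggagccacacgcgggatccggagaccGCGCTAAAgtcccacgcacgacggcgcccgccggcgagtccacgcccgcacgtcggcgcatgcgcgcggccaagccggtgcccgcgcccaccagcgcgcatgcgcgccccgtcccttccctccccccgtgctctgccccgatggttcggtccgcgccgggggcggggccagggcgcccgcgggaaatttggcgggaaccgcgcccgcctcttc
CDT1 rose in TF-1 (0.52) and stood at -0.13 in UT-7 (adjusted p = 0.0469), with a difference of 0.65 ± 0.07. Of the 12 genes with the letters, 7 had a positive difference, POLA1 a negative one, and the other 4 did not pass.

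Genes of mitosis leaned the other way. Of 42, 18 rose and 5 fell in TF-1 (median 0.11), or 7 and 10 with library totals alone, and 28 rose and 1 fell in UT-7 (median 0.20). Over all genes 27.8% rose and 27.2% fell in TF-1, and 21.6% rose and 23.3% fell in UT-7. The difference was negative for 15 and positive for 2, with a median of -0.13, beside 10.6% negative and 14.4% positive over all genes. It was negative for 22 without TF-1 cyclocreatine replicate 1, and positive for 0 without UT-7 cyclocreatine replicate 3. CENPE, a kinetochore motor, averaged 49.2 ± 7.03 CPM in TF-1 with cyclocreatine and 98.5 ± 3.43 CPM with vehicle, and 46.01 ± 3.097 CPM in UT-7 with cyclocreatine and 47.5 ± 1.998 CPM with vehicle (SD, n = 4 each). CDC25B, a phosphatase that activates CDK1, and HMMR, a spindle protein, fell in TF-1 (-0.52 and -0.62) and had log2 values of 0.00 and -0.03 in UT-7. DLGAP5, another spindle protein, stood at 0.01 in TF-1 and rose in UT-7 (0.40).

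The protein synthesis lists also lay higher in TF-1. MYC, the transcription factor that drives ribosome production, fell in both lines, with log2 changes of -0.18 in TF-1 (787 ± 29.6 CPM with cyclocreatine and 892 ± 19.5 CPM with vehicle) and -0.69 in UT-7 (358 ± 8.95 CPM with cyclocreatine and 576 ± 16.7 CPM with vehicle). Of 43 genes of MYC and ribosome biogenesis, 29 had a positive and 0 a negative difference, with a median of 0.25. In TF-1 14 rose and 11 fell, or 7 and 20 with library totals alone. In UT-7 1 rose and 33 fell. For this list and the ribosomal proteins below, the shares over all genes were 14.4% positive and 10.6% negative. In TF-1 27.8% of all genes rose and 27.2% fell, and in UT-7 21.6% rose and 23.3% fell. NOP16 and BYSL, nucleolar factors of ribosome assembly, rose in TF-1 (0.24, which did not pass with library totals alone, and 0.27) and fell in UT-7 (-0.43 and -0.18), while NOP58 of the snoRNP core stood at -0.02 in TF-1 and fell in UT-7 (-0.44). The 77 tested genes of cytosolic ribosomal proteins all rose in TF-1 (median 0.59), 72 rose in UT-7 (median 0.31), and 59 had a positive and 0 a negative difference (median 0.27). Without TF-1 cyclocreatine replicate 1, the library with the raised ribosomal share, the difference was positive for 62 with a median of 0.16. RPL14, a protein of the large subunit, averaged 1020.0 ± 91.7 CPM with cyclocreatine and 629 ± 16.8 CPM with vehicle in TF-1, and 345 ± 10.8 CPM with cyclocreatine and 276 ± 8.89 CPM with vehicle in UT-7. Levels of ribosomal protein genes are uncertain because reads can be shared with their many processed pseudogenes.

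Nuclear-encoded subunits of oxidative phosphorylation rose in larger number in TF-1 than in UT-7. Of 77, 55 rose and 0 fell in TF-1 (median 0.28), 21 rose and 2 fell in UT-7 (median 0.07), and 25 had a positive and 0 a negative difference (median 0.19), beside 14.4% and 10.6% over all genes. This list too moved with the library of raised ribosomal share: without it 47 rose and 4 fell in TF-1, 37 rose and 4 fell in UT-7, and 21 had a positive and 3 a negative difference. The UT-7 counts change although that library is from TF-1, because the groups share 1 estimate of spread. Part of the contrast in numbers between the lines thus rests on that library. UQCRB of complex III averaged 281 ± 27.8 CPM in TF-1 with cyclocreatine and 176 ± 3.45 CPM with vehicle, and 217 ± 5.25 CPM in UT-7 with cyclocreatine and 176 ± 3.81 CPM with vehicle. NDUFS3 of complex I rose in TF-1 (0.47) and stood at 0.04 in UT-7 (adjusted p = 0.655). Of 25 genes of the tricarboxylic acid cycle 8 had a positive and 1 a negative difference, or 3 and 3 with library totals alone and 3 negative without TF-1 cyclocreatine replicate 1, 2 or 4.

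**Figure D4:**
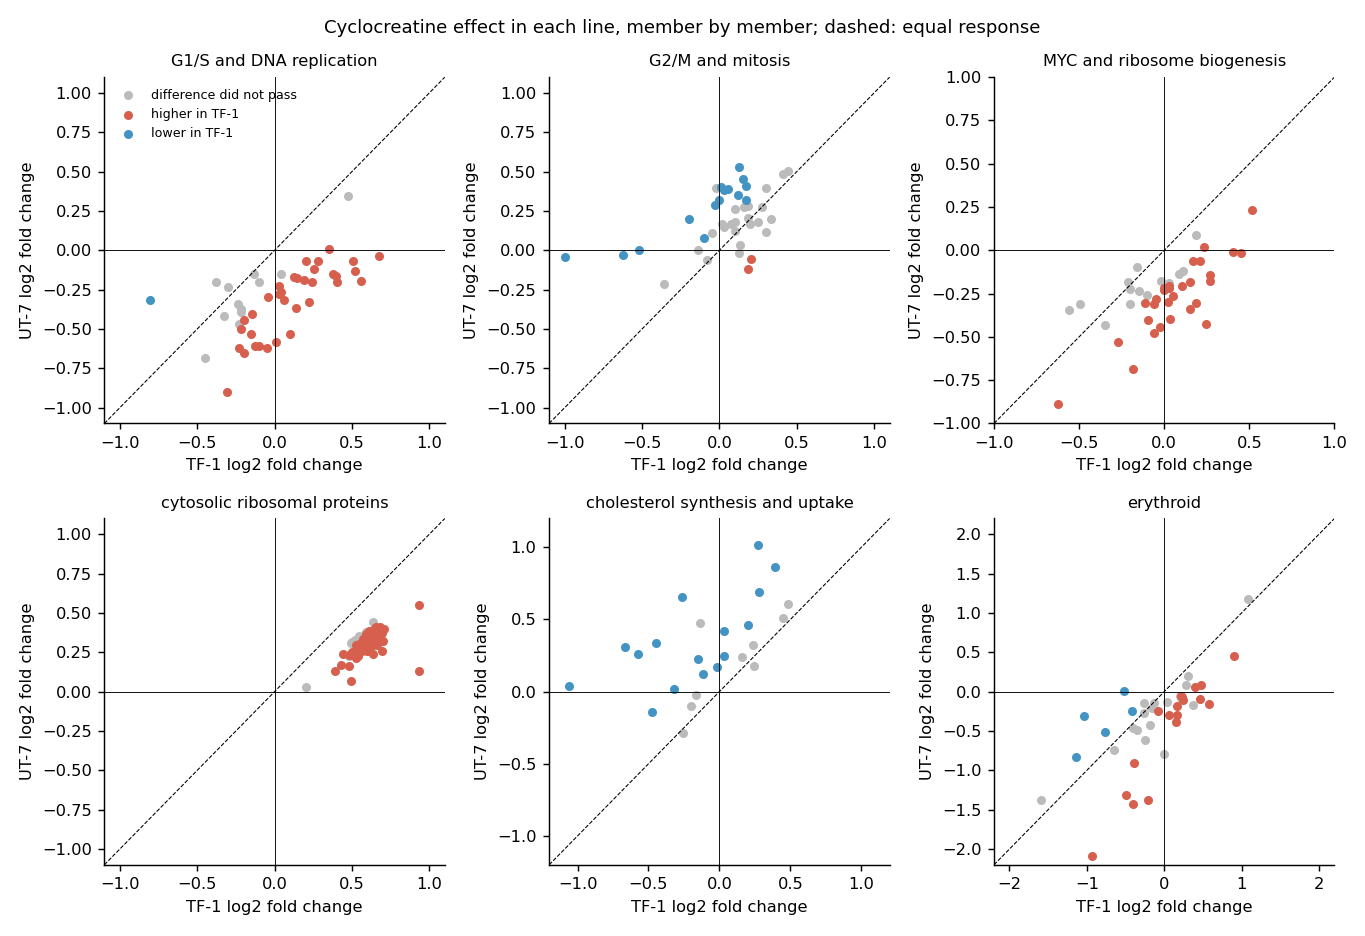
Cyclocreatine effect in TF-1 (horizontal) against that in UT-7 (vertical), as log2 fold changes, for the tested members of 6 gene lists, 1 point per gene. Red points had a positive and blue points a negative response difference. Replication, ribosome biogenesis and ribosomal protein genes lie mostly below the dashed line of equal response, and cholesterol genes mostly above it.

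Cholesterol synthesis showed no positive difference. Its genes are switched on together by SREBP2 when membrane sterol is low. Of 25 tested, 16 had a negative difference (10.6% of all genes) and 0 a positive one, with a median of -0.33. In TF-1 9 rose and 12 fell, or 5 and 13 with library totals alone, and in UT-7 16 rose and 3 fell. INSIG1, which holds the SREBP complex in the endoplasmic reticulum, held 180.3, 181, 185 and 176 CPM in TF-1 with cyclocreatine and 369, 386, 373 and 373 CPM with vehicle. UT-7 libraries held 176, 174, 161 and 167 CPM with cyclocreatine and 160.4, 162, 168 and 170.2 CPM with vehicle. The difference was -1.10 ± 0.05 (adjusted p = 1.52e-13), and cyclocreatine brought the TF-1 level to within 0.09 on the log2 scale of the UT-7 level, from which it stood 1.19 apart with vehicle. HMGCS1, an early enzyme of the pathway, held 300.4, 313, 337 and 324 CPM in TF-1 with cyclocreatine and 396, 375, 362 and 397 CPM with vehicle. In UT-7 it held 310.2, 314, 287 and 307 CPM with cyclocreatine and 188, 193, 194 and 196 CPM with vehicle. It fell in TF-1 and rose in UT-7 without overlap in either line, and the gap between the lines was 0.06 with cyclocreatine and 0.99 with vehicle. The methylsterol oxidase gene MSMO1 rose in both lines (0.27 in TF-1, 1.02 in UT-7). SCD, the stearoyl-CoA desaturase of fatty acid synthesis, fell in TF-1 (-0.22) and rose in UT-7 (0.24). Both lines lost most of CHKA, the choline kinase that starts phosphatidylcholine synthesis, and of ETNK1, the ethanolamine kinase. CHKA changed by -2.14 in TF-1 and -1.64 in UT-7, ETNK1 by -2.11 and -1.40, and the response differences were -0.50 ± 0.08 and -0.70 ± 0.10.

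Of 49 genes of the amino acid and integrated stress response, 19 had a negative and 2 a positive difference (median -0.30), with 7 rising and 32 falling in TF-1 and 11 rising and 14 falling in UT-7. For this list and the interferon list below, the shares over all genes were 10.6% negative and 14.4% positive. In TF-1 27.8% of all genes rose and 27.2% fell, and in UT-7 21.6% rose and 23.3% fell. These genes are targets of ATF4 when amino acids run short. ASNS, asparagine synthetase, averaged 38.03 ± 2.57 CPM in TF-1 with cyclocreatine and 55.8 ± 3.93 CPM with vehicle, and 41.9 ± 1.92 CPM in UT-7 with cyclocreatine and 40.5 ± 2.299 CPM with vehicle. The tryptophanyl-tRNA synthetase gene WARS fell in both lines (-0.86 and -0.36). DDIT4, an inhibitor of mTORC1, fell in TF-1 (-0.19, which did not pass in several alternative fits) and rose in UT-7 (0.65). Without TF-1 cyclocreatine replicate 1, 26 were negative. Of 36 type I interferon response genes, 15 had a negative and 3 a positive difference (median -0.54). In TF-1 3 rose and 23 fell, and in UT-7 5 rose and 7 fell. IFIT2, an RNA-binding antiviral protein, averaged 1.24 ± 0.608 CPM with cyclocreatine and 6.79 ± 1.29 CPM with vehicle in TF-1, and 1.81 ± 0.231 CPM and 2.12 ± 0.806 CPM in UT-7. SAMD9 fell in both lines, with log2 changes of -1.24 in TF-1 and -0.32 in UT-7. Metallothioneins, which bind zinc, were led by MT1X and MT2A: MT1X averaged 18.3 ± 1.94 CPM with cyclocreatine and 20.5 ± 0.927 CPM with vehicle in TF-1, and 24.7 ± 2.22 CPM and 12.03 ± 1.598 CPM in UT-7, and MT2A had a difference of -0.83 ± 0.14. Near-identical metallothionein and histone genes can share reads, so their levels are uncertain. SESN3, a sestrin and target of FOXO factors, stood at 0.18 in TF-1 (adjusted p = 0.0688) and rose in UT-7 (1.54), with a difference of -1.36 ± 0.13.

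**Figure D5:**
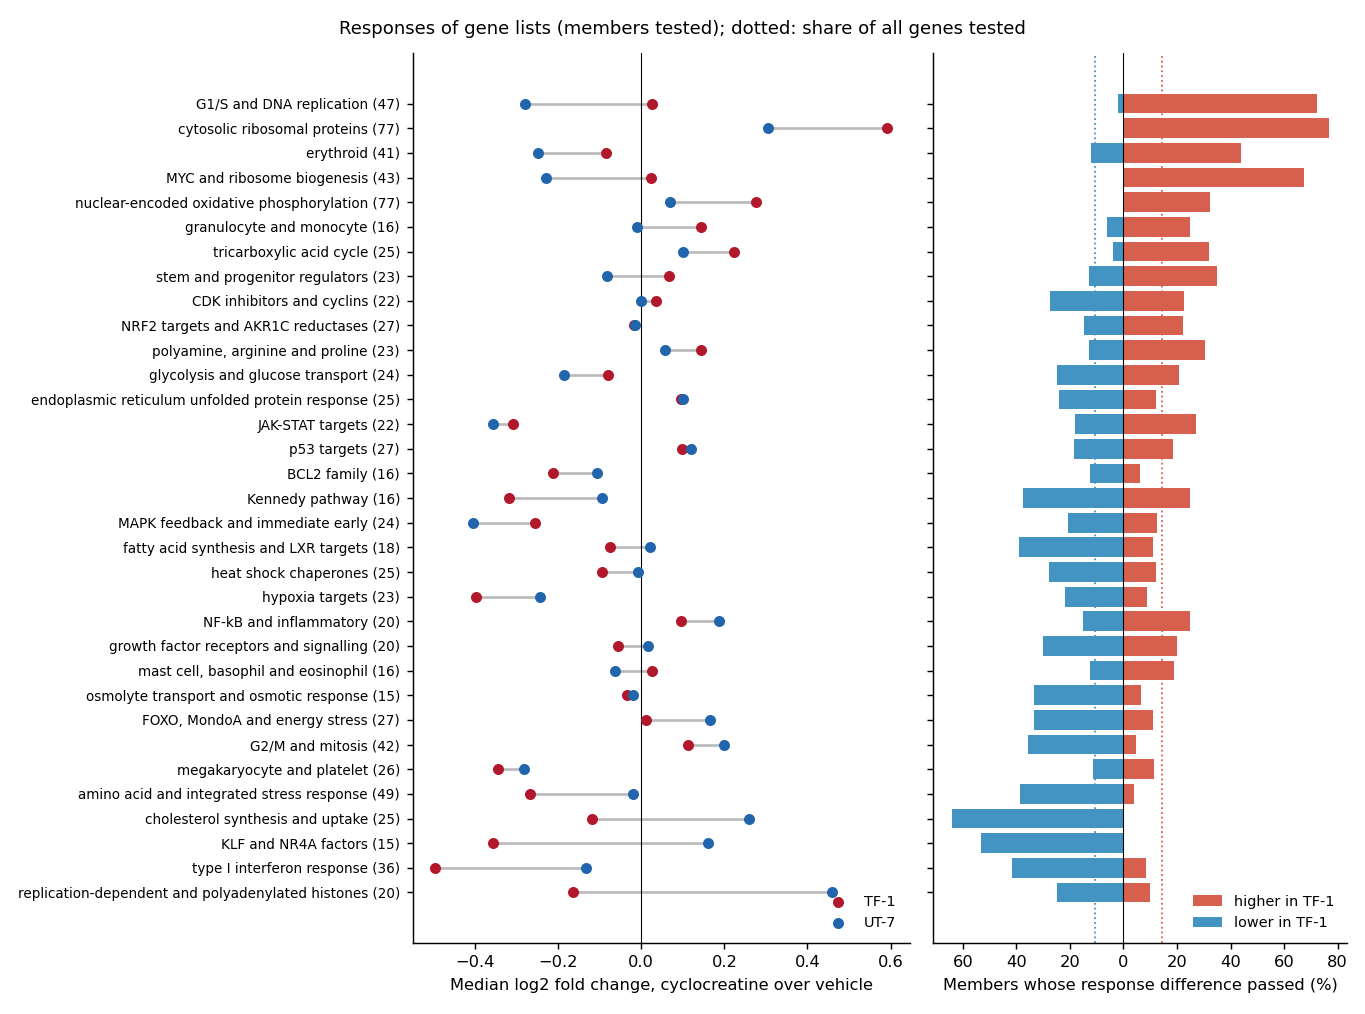
Left, the median log2 fold change of each gene list in TF-1 (red) and UT-7 (blue), for lists of at least 15 tested genes. Right, the share of members with a positive (red) or negative (blue) response difference in percent, with dotted lines at the shares of all genes tested, 14.4% and 10.6%. Replication, ribosomal protein and ribosome biogenesis genes stand out on the positive side, and cholesterol genes and KLF and NR4A factors on the negative side.

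Red cell genes had more positive than negative differences. Of 41 tested, 18 had a positive and 5 a negative difference (14.4% and 10.6% of all genes), with a median of 0.27. In TF-1 16 rose and 19 fell, or 10 and 21 with library totals alone, and in UT-7 3 rose and 24 fell. HEMGN, a nuclear protein of erythroid maturation, held 20.7, 22.9, 25.6 and 20.8 CPM in TF-1 with cyclocreatine and 40.6, 41.3, 44.1 and 44.9 CPM with vehicle, and 5.02, 5.67, 4.63 and 5.77 CPM in UT-7 with cyclocreatine and 22.3, 23.6, 21.3 and 22.6 CPM with vehicle. The lines thus stood 2.09 apart on the log2 scale with cyclocreatine and 0.93 apart with vehicle, and the difference was 1.16 ± 0.13 (adjusted p = 2.75e-07). RHAG, the Rh-associated ammonium channel, rose in TF-1 (0.58) and fell in UT-7 (-0.15), and SLC25A37, the mitochondrial iron importer mitoferrin, fell in both (-0.39 and -0.90). Members with a negative difference included TFRC, the transferrin receptor (-1.14 in TF-1, -0.83 in UT-7), and SPTB, the spectrin beta chain (-0.77 and -0.52). The transcription factors GATA1, TAL1 and KLF1 had differences of 0.17, 0.00 and 0.04 that did not pass.

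Genes of megakaryocytes and platelets gave 3 positive and 3 negative differences of 26, which is close to the shares of all genes (14.4% and 10.6%). In TF-1 3 rose and 16 fell, with a median of -0.34, beside 27.8% and 27.2% of all genes. In UT-7 3 rose and 12 fell, with a median of -0.28, beside 21.6% and 23.3% of all genes. PLEK, the platelet protein pleckstrin, fell further in UT-7 (-0.33 in TF-1, -1.28 in UT-7) from vehicle levels that were alike, 53.9 ± 3.098 CPM in TF-1 and 51.8 ± 1.62 CPM in UT-7. F2R, the thrombin receptor, fell in TF-1 (-0.51) and rose in UT-7 (0.22). ITGA2B, the alpha chain of the platelet fibrinogen receptor, rose in both (0.74 and 0.29) while its partner chain ITGB3 fell in both (-1.26 and -0.70). Targets of cytokine signaling went both ways. PIM1, a kinase induced through STAT5, fell further in TF-1 (-0.96, against -0.28 in UT-7), and SOCS3, a feedback inhibitor of the same pathway, fell further in UT-7 (-0.36 in TF-1, -1.17 in UT-7). Of 22 JAK-STAT target genes 6 had a positive and 4 a negative difference, beside 14.4% and 10.6% of all genes. Among cytokine receptors IL6R rose in both lines and further in UT-7 (0.53 in TF-1, 1.39 in UT-7), and KIT, the stem cell factor receptor, rose in TF-1 (0.23) and fell in UT-7 (-0.25), with vehicle levels of 129.5 ± 6.64 CPM in TF-1 and 861 ± 13.3 CPM in UT-7.

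Markers of other blood lineages held differences in both directions, beside 14.4% positive and 10.6% negative over all genes. Of 16 granulocyte and monocyte genes 4 had a positive and 1 a negative difference, or 4 and 3 with library totals alone or without TF-1 cyclocreatine replicate 1. SPI1, the myeloid transcription factor PU.1, rose in TF-1 (0.28) and fell in UT-7 (-0.30). LYZ, lysozyme, rose in TF-1 (0.35) and fell in UT-7 (-0.11, which did not pass in many alternative fits). C5AR1, the receptor of complement C5a, rose in both and further in UT-7 (1.09 in TF-1, 2.03 in UT-7), to 13.2 ± 2.25 CPM in TF-1, against 6.22 ± 1.16 CPM with vehicle, and to 18.2 ± 1.199 CPM in UT-7, against 4.44 ± 0.413 CPM with vehicle. Of 16 genes of mast cells, basophils and eosinophils 3 had a positive and 2 a negative difference, or 3 and 5 with library totals alone and 4 negative without any 1 of the treated TF-1 libraries. SIGLEC6, a sialic acid receptor, fell further in TF-1 (-1.88, against -0.77 in UT-7). No lymphoid gene of 7 passed, and of 7 stromal and epithelial genes only PECAM1, which platelets also carry, did (0.39 ± 0.08). Of 23 stem and progenitor regulators 8 had a positive and 3 a negative difference. LYL1, a basic helix-loop-helix factor of blood progenitors, rose in TF-1 (0.58) and stood at -0.08 in UT-7, and GFI1B, a repressor needed for red cells and platelets, fell further in UT-7 (-0.37 in TF-1, -0.89 in UT-7).

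Cell cycle control and growth signaling were mixed, beside 14.4% positive and 10.6% negative differences over all genes. Of 22 CDK inhibitors and cyclins 5 had a positive and 6 a negative difference. Cyclin D1, CCND1, fell further in TF-1 (-1.28, against -0.78 in UT-7), and cyclin D3, CCND3, fell further in UT-7 (-0.30 in TF-1, -0.88 in UT-7). CCND3 averaged 413 ± 7.87 CPM in TF-1 with vehicle and 180.4 ± 10.1 CPM in UT-7, and CCND1 58.5 ± 3.03 CPM in TF-1 and 284 ± 8.96 CPM in UT-7. CDKN2D, the inhibitor p19, stood at 0.10 in TF-1 and fell in UT-7 (-0.72). Of 24 MAPK feedback and immediate early genes 3 had a positive and 5 a negative difference. ETV5, a target of ERK signaling, fell in TF-1 (-0.57) and rose in UT-7 (0.20, which did not pass in several alternative fits). Of 20 growth factor receptors and signaling genes 4 were positive and 6 negative, or 2 positive with library totals alone and when most single libraries were left out, among them INPP5D, the phosphatase SHIP1, which stood at 0.03 in TF-1 and rose in UT-7 (0.36), and PTPN6, the phosphatase SHP1, which fell further in UT-7 (-0.29 in TF-1, -0.53 in UT-7). Of 20 histone genes 2 were positive and 5 negative (median -0.68), with H2AFX, the histone of DNA damage signaling, rising in TF-1 (0.49) and standing at -0.09 in UT-7.

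Metabolic lists also held members on both sides, beside 14.4% positive and 10.6% negative differences over all genes. Of 23 polyamine, arginine and proline genes 7 had a positive and 3 a negative difference, or 6 and 5 without TF-1 cyclocreatine replicate 1. SAT1, which acetylates polyamines for export, averaged 172 ± 19.5 CPM in TF-1 with cyclocreatine and 46.1 ± 3.99 CPM with vehicle, and 206 ± 13.3 CPM in UT-7 with cyclocreatine and 93.8 ± 1.82 CPM with vehicle (difference 0.76 ± 0.09). ODC1, the first enzyme of polyamine synthesis, rose in TF-1 (0.30) and fell in UT-7 (-0.29), with vehicle levels of 826 ± 20.3 CPM in TF-1 and 194 ± 7.69 CPM in UT-7. Of 24 genes of glycolysis and glucose transport 5 were positive and 6 negative, and 3 were positive without TF-1 vehicle replicate 3. The glucose transporter gene SLC2A1 fell in TF-1 (-0.50) and stood at 0.07 in UT-7, while SLC16A3, the lactate exporter, fell further in UT-7 (-0.52 in TF-1, -1.05 in UT-7). Of 23 hypoxia targets 2 were positive and 5 negative, or 0 and 6 with library totals alone or without TF-1 cyclocreatine replicate 1, and NDRG1 fell in TF-1 (-0.76). Of 18 fatty acid and LXR genes 2 were positive and 7 negative, with 1 positive when most single libraries were left out. FASN, the fatty acid synthase, fell in TF-1 (-0.37) and in UT-7 (-0.12, which did not pass without some single UT-7 libraries). Of 16 Kennedy pathway genes, which make phospholipids, 4 were positive and 6 negative, and SLC44A1, a choline transporter, stood at 0.04 in TF-1 and rose in UT-7 (0.56).

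Of 27 FOXO, MondoA and energy stress genes 3 had a positive and 9 a negative difference. For this list and those that follow, the shares over all genes were 14.4% positive and 10.6% negative. TXNIP, the glucose-sensing target of MondoA, averaged 609.6 ± 23.7 CPM in TF-1 with cyclocreatine and 349 ± 9.46 CPM with vehicle, and 1318 ± 95.5 CPM in UT-7 with cyclocreatine and 529.7 ± 10.99 CPM with vehicle (difference -0.51 ± 0.06). TSC22D3, the glucocorticoid-induced leucine zipper gene, fell in TF-1 (-1.03) and rose in UT-7 (0.89). Of 27 NRF2 targets and AKR1C reductases 6 were positive and 4 negative, and AKR1C1, whose copies share much of its sequence, rose in both and further in UT-7 (1.32 in TF-1, 1.85 in UT-7). Of 20 NF-kB and inflammatory genes 5 were positive and 3 negative, or 5 and 6 without TF-1 cyclocreatine replicate 1, with NFKB1 rising further in TF-1 (0.81, against 0.32 in UT-7) and NFKB2 standing at 0.09 in TF-1 and rising in UT-7 (0.79). Of 27 p53 targets 5 were positive and 5 negative, or 6 and 8 without TF-1 cyclocreatine replicate 1. Among them BTG2, an antiproliferative gene, fell in TF-1 (-0.23, which did not pass without TF-1 vehicle replicate 2) and further in UT-7 (-0.74). Of 16 BCL2 family genes 1 was positive and 2 negative, beside 14.4% and 10.6% over all genes, or 0 and 4 without TF-1 cyclocreatine replicate 1. Of 25 unfolded protein response genes 3 were positive and 6 negative, or 1 and 6 with library totals alone and between 2 and 6 positive and 3 and 8 negative with 1 library left out, and PDIA4, a folding enzyme, rose in both (0.82 in TF-1, 0.52 in UT-7). Of 25 heat shock chaperones 3 were positive and 7 negative, or 1 and 10 with library totals alone and between 3 and 10 negative with 1 library left out. HSPD1, the mitochondrial chaperonin, rose in TF-1 (0.16, which did not pass with library totals alone) and fell in UT-7 (-0.12). Of 15 osmolyte transport genes 1 was positive and 5 negative, or 2 and 5 without TF-1 cyclocreatine replicate 1, and AQP3, the glycerol and water channel, fell in both lines and further in TF-1 (-1.77, against -1.24 in UT-7).

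Opposite responses with a higher group mean of at least 5 CPM in each line were led by a few genes of other functions. PLXNB3, a plexin receptor of semaphorins, held 38.9, 42.5, 42.4 and 42.9 CPM in TF-1 with cyclocreatine and 33.8, 32.3, 33.8 and 30.00 CPM with vehicle, and 17.8, 18.9, 18.1 and 17.96 CPM in UT-7 with cyclocreatine and 29.3, 30.9, 30.2 and 29.6 CPM with vehicle. The vehicle levels of the lines were alike, both responses were free of overlap, and the difference was 1.08 ± 0.09 (adjusted p = 2.98e-09). CALHM2, CDKL1, GNB1L, MAP3K14 and CTSS also rose in TF-1 and fell in UT-7. CTSS, the lysosomal protease cathepsin S, averaged 56.1 ± 4.09 CPM with cyclocreatine and 43.9 ± 1.37 CPM with vehicle in TF-1, and 30.4 ± 1.77 CPM with cyclocreatine and 40.5 ± 1.34 CPM with vehicle in UT-7. MAP3K14, the kinase of the alternative NF-kB pathway, changed by 0.33 in TF-1 and -0.57 in UT-7. In the other orientation, MAPKBP1, a scaffold of MAP kinases, averaged 23.4 ± 1.28 CPM with cyclocreatine and 31.5 ± 2.69 CPM with vehicle in TF-1, and 42.4 ± 1.65 CPM with cyclocreatine and 26.3 ± 2.14 CPM with vehicle in UT-7 (difference -1.12 ± 0.10). BASP1, HELZ2, PLA2G16 and HIST1H2AC, a histone gene that shares sequence with its copies, had the same orientation, with differences of -1.38, -0.93, -0.94 and -1.14 in that order. The effect of 1 line did not pass in some of the alternatives for CALHM2, MAP3K14 and HIST1H2AC, with adjusted p-values of up to 0.117, 0.0954 and 0.0855.

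None of the 6 tested genes among the creatine genes and MECOM had a response difference that passed. CKB, the brain-type creatine kinase, fell in both lines. It averaged 666 ± 84.3 CPM in TF-1 with cyclocreatine and 976 ± 17.9 CPM with vehicle, and 363 ± 18.4 CPM in UT-7 with cyclocreatine and 617 ± 18.3 CPM with vehicle (SD, n = 4 each), and its difference was 0.21 ± 0.08 (adjusted p = 0.057). SLC6A8, the creatine transporter, also fell in both, with 245, 204, 243 and 270.0 CPM in TF-1 with cyclocreatine and 516, 502, 498 and 539 CPM with vehicle, and 13.7, 13.3, 7.34 and 9.65 CPM in UT-7 with cyclocreatine and 34.4, 32.05, 29.1 and 31.3 CPM with vehicle. Its vehicle gap of 4.02 on the log2 scale was far larger than its response difference of 0.44 ± 0.17 (adjusted p = 0.0657), and near-identical copies of this gene exist elsewhere in the genome. GAMT, which makes creatine, fell in TF-1 (-0.46) and stood at 0.12 in UT-7, where its level was 1.93 ± 0.386 CPM with vehicle, and the difference was -0.58 ± 0.24 (adjusted p = 0.0734). CKB passed without TF-1 cyclocreatine replicate 2 or 3 (lowest adjusted p = 0.0307). SLC6A8 passed without TF-1 cyclocreatine replicate 2 or UT-7 cyclocreatine replicate 1 or 2 (lowest adjusted p = 0.0216). GAMT passed without TF-1 cyclocreatine replicate 1 or UT-7 vehicle replicate 2 (lowest adjusted p = 0.0134), with library totals alone (0.0419) and with all 24 libraries (0.0365). MECOM averaged 10.8 ± 3.74 CPM and 12.9 ± 2.41 CPM with cyclocreatine and vehicle in TF-1 and 3.75 ± 0.0973 CPM and 6.31 ± 0.719 CPM in UT-7, with a fall that passed in UT-7 (-0.75, adjusted p = 0.00522) and a difference of 0.50 ± 0.27 (adjusted p = 0.184). Its change in TF-1 did not pass, except without TF-1 cyclocreatine replicate 2 (-0.49, adjusted p = 0.00583). The muscle kinase CKM and the synthesis enzyme GATM had differences of 0.25 ± 0.18 and 0.63 ± 0.62. The fall of GATM in TF-1 did not pass, but did in several alternative fits, among them limma-voom (adjusted p = 0.0243) and DESeq2 (0.0460). CKMT1A, CKMT1B and CKMT2, the mitochondrial kinases, had too few counts to be tested.

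Some genes were expressed in 1 line and hardly in the other. Among genes with at least 5 CPM with vehicle in TF-1 and under 1 CPM in both UT-7 groups, 254 passed in TF-1, 71 upwards and 183 downwards, and 22 of them had a response difference that passed. Among the corresponding UT-7 genes 60 passed, 22 upwards and 38 downwards, and 8 had a response difference that passed. Over all genes 27.8% rose and 27.2% fell in TF-1, and 21.6% rose and 23.3% fell in UT-7. Both sets ask for 5 CPM with vehicle and so leave out genes that rose from a lower level. Part of the lean to falls is therefore set by the selection. By vehicle level alone, 270 of the 451 TF-1 genes (59.9%) passed in TF-1. The share was 55.0% of all genes and 62.6% of genes with at least 5 CPM in both lines. Of the 121 UT-7 genes 67 (55.4%) passed in UT-7, beside 44.9% of all genes and 54.9% of those with at least 5 CPM in both lines. Genes of a single line thus passed about as often in their own line as genes present in both. LTBP1, which stores latent TGF-beta in the matrix, averaged 2.996 ± 0.983 CPM with cyclocreatine and 14.6 ± 2.504 CPM with vehicle in TF-1, and 0.2897 ± 0.2099 CPM and 0.494 ± 0.205 CPM in UT-7. IGFBP5, a binding protein of insulin-like growth factors, averaged 3.41 ± 0.557 CPM with cyclocreatine and 13.2 ± 0.715 CPM with vehicle in TF-1 and was at 0 in 7 of 8 UT-7 libraries. The response differences of LTBP1 and IGFBP5 did not pass. That of LTBP1 passed with DESeq2 and without UT-7 cyclocreatine replicate 4, and that of IGFBP5 with limma-voom. KCNN1, a calcium-activated potassium channel, and the membrane protein gene TMEM98 fell in TF-1, with log2 changes of -2.0 and -1.93. In UT-7, FCER2, the low-affinity IgE receptor, averaged 54.8 ± 2.49 CPM with cyclocreatine and 16.8 ± 1.25 CPM with vehicle, and it rose at under 1 CPM in TF-1 as well (1.48). FAM110B averaged 20.4 ± 0.674 CPM with cyclocreatine and 7.48 ± 1.15 CPM with vehicle and was at 0 in all 8 TF-1 libraries. PTPRR, a receptor phosphatase of MAP kinases, fell in UT-7 (-1.86) and was at 0 in the 4 treated TF-1 libraries, and IGLL1, the surrogate light chain, fell there too (-1.48).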

How the data were processed

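The authors deposited whole-number read counts per gene for each library, 25728 genes in all. Per the submitters' processing notes, the tools and builds were TopHat2, RSEM and FastQC with GRCh37 and hg19, without versions, and per the labels total RNA was used. How strand was handled and how reads were counted is not given in the sources used, so reads of overlapping, antisense or near-identical genes may be shared.

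From these deposited counts, 1 group-means model over the 16 TF-1 and UT-7 libraries was fitted with edgeR 4.0.16 (R 4.3.3), using TMM scaling, filterByExpr (minimum count 10, minimum total 15), robust quasi-likelihood F tests and Benjamini-Hochberg adjustment over 13889 genes, with 12 residual degrees of freedom. The tested genes held at least 99.92% of each library's counts. Log2 fold changes come from this fit, and CPM values are counts over the TMM-scaled library totals. The fit was tested on simulated data with known changes in a small set of genes and the same spread for every gene and group. Such data lack the uneven spread and the many responding genes seen here, so the fit was not tested for these. Alternatives used DESeq2 1.42.0 and limma 3.58.1. Same-numbered libraries did not deviate together, and the replicate numbers were not used as pairs.

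Named genes were the 8 per direction with the largest difference, 6 per orientation of opposite responses, 4 per line expressed in 1 line alone, up to 4 per list with the smallest p, and the creatine genes with MECOM; some genes this rule names are not reported here. KLF2, NR4A2, CCNE2, MCM3, PCNA, POLA1, CDT1, BYSL, KLF10, GATA1, TAL1, KLF1, TFRC and SPTB were added after their values were seen. The comparison and the 37 gene lists were chosen with earlier results of these data known.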

Additional observations from a re-analysis of the deposited data

Results flagged for a closer look

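Of 212 groups of 4 libraries examined, 20 held a library whose gap to its nearest neighbour took up more of the group's range than Dixon's critical value allows, a limit that chance passes in about 1 group of 20. Among summed and shared measures, TF-1 cyclocreatine replicate 1 stood apart with a ribosomal protein share of 10.25% and with 354.1 CPM of stromal and epithelial markers, and UT-7 cyclocreatine replicate 1 with 64.93 CPM of these markers. In TF-1 with cyclocreatine, replicate 1 stood apart for RPL14 (1157 CPM), CCND3 (371.6 CPM), SAT1 (201.5 CPM), PLXNB3 (38.85 CPM) and GAMT (17.86 CPM), and replicate 4 for MCM2 (292.2 CPM). In TF-1 with vehicle, replicate 3 stood apart for UQCRB (171.4 CPM), replicate 2 for ODC1 (856.9 CPM) and replicate 1 for MAPKBP1 (27.52 CPM). In UT-7 with cyclocreatine, replicate 3 stood apart for HMOX1 (3.494 CPM), CCND1 (178.1 CPM), TXNIP (1174 CPM) and FCER2 (51.13 CPM), and replicate 4 for ORC1 (98.8 CPM) and IGFBP5 (0.1408 CPM). In UT-7 with vehicle, replicate 4 stood apart for JAG2 (1.774 CPM) and MT1X (14.41 CPM).

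The other results listed for a closer look are differences between the lines, each tested as the difference itself: 2006 genes with a response higher in TF-1, 1468 with one lower in TF-1, 188 that rose in TF-1 and fell in UT-7, and 171 that fell in TF-1 and rose in UT-7.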

How the results depend on the processing

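The counts of response differences stayed within 1.5 times of 2006 higher and 1468 lower under every alternative except a test against a 1.5-fold difference (glmTreat). By that test 25 were higher and 56 lower for the difference, 308 and 525 for TF-1, 234 and 239 for UT-7, and 3357 and 2697 for the vehicle levels, with 0 and 0 opposite responses and 38 differences among genes of at least 5 CPM in both lines. With library totals alone, opposite responses up in TF-1 and down in UT-7 numbered 110. DESeq2 gave 1848 higher and 1724 lower, limma-voom 1886 and 1449, and all 24 libraries 2089 and 1922. Of the 3572 calls of DESeq2, 3274 were also called by edgeR. Leaving out each library in turn gave 1629 to 1965 higher and 1254 to 1950 lower differences, 3554 to 3784 higher and 3547 to 4141 lower in TF-1, 2597 to 3554 higher and 2940 to 3497 lower in UT-7, 5614 to 5948 higher and 5379 to 5661 lower for vehicle levels, 142 to 181 opposite responses up in TF-1 and 130 to 235 down in TF-1, and 2525 to 3401 differences among genes of at least 5 CPM in both lines. The highest count of lower differences, 1950, came without TF-1 cyclocreatine replicate 1. The TF-1 effect of DKC1, a ribosomal RNA modifier, was 0.02 and did not pass, and was -0.075 with library totals alone; the cause was not tested. Same-numbered libraries share only a number, with correlations of their deviations between -0.057 and 0.008 within a line and between -0.036 and 0.060 across lines. With the number as a replicate block 1917 were higher and 1397 lower, and with a block within each line 1674 and 1252. CKB passed with the block by number (adjusted p = 0.0476) and SLC6A8 with the block within each line (0.0137). Depth limits the genes that 1 line hardly expresses, where the standard error of the difference is several times larger.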
